A study of Mus musculus with 27 samples.

Results

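The difference between genotypes in the liver's response to ischemia-reperfusion was measured in 16 mouse liver RNA libraries out of the 27 samples of the series. A response is the log2 ratio of livers after ischemia-reperfusion surgery (IR) over livers after sham surgery, and the quantity described here is the response of knockout livers minus the response of wild-type livers. It was tested at every transcript that reached 10 CPM (estimated counts per 1 M of the library total) in 4 or more of the 16 libraries, which left 7443 of the 111462 transcripts listed. These hold 93.6 to 95.8% of the estimated counts of a library. At the threshold, the 4th highest CPM was 10.0005 for the transcript just inside and 9.99992 for the transcript just outside.

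The knockout livers (KO) came from Alb-cre:Aclyf/f mice. In these, Cre recombinase is driven by the albumin promoter and removes the floxed part of Acly in hepatocytes. Whether other cells of the liver kept the gene was not checked here. Each genotype had IR or sham surgery, and tissue from what the design text calls the broader zone was taken 24 hours later, giving KO IR, KO sham, wild-type (WT) IR and WT sham groups of 4 libraries each. The titles and the design text give the surgery, whereas the treatment field of the same libraries reads hypoxia-reperfusion or normoxia. Age, sex, the length of ischemia, and whether the WT mice carried floxed alleles are not given in the sources used here, and nothing says whether each library is a different animal, so all p-values measure the spread between these libraries only.

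ACLY, ATP citrate lyase, splits citrate that has left the mitochondria into oxaloacetate and acetyl-CoA. That acetyl-CoA feeds fatty acid and cholesterol synthesis in the cytosol, both prominent in hepatocytes, and in the nucleus the acetylation of histones. Ischemia-reperfusion injures liver through loss of oxygen and then its return, with hepatocyte death and an inflammatory reaction over the following hours and days. Bulk liver RNA mixes hepatocytes with resident and incoming cells, so fewer cells of a type and less RNA per cell cannot be told apart in these data.

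Transcripts carry Ensembl transcript identifiers only, and neither the files nor the tables used here pair those with genes. Gene groups, cell type markers and Acly itself were therefore not analysed here, neither the tissue nor the genotype label could be checked against its genes, and a change of a whole gene cannot be told apart from a shift between its isoforms. Identifiers are printed for the 2 largest differences in each direction only.

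Depth and scaling differed with the group. The libraries held 37.79 to 44.6 M estimated counts, and KO IR libraries 1 to 3, at 37.79 to 38.22 M, lay below all 13 others. KO IR libraries had 17417 to 19189 transcripts of at least 1 TPM, and the other 12 libraries had 15084 to 17065. TMM scaling factors, which correct for the composition of a library, were 1.08 to 1.18 in KO IR, 0.871 to 0.988 in KO sham, 0.906 to 1.04 in WT IR and 0.911 to 0.986 in WT sham. On the first principal component of the tested transcripts, which held 40.5% of the variance, KO IR libraries lay at 29.08 to 50.23, KO sham libraries at -28.4 to -19.32, WT IR libraries at 5.65 to 14.97 and WT sham libraries at -30.85 to -17.92. WT sham 4 stood apart from the other WT sham libraries on the second component (32.6 against -10.29 to 6.68), and without it the test below called 426 transcripts in place of 451. The part of depth and composition in the results below was not tested beyond the scaling and thinning values given with them.

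The response to IR differed between KO and WT livers at 451 transcripts, 6.06% of those tested (edgeR quasi-likelihood test, Benjamini-Hochberg adjusted p under 0.05). Some of these transcripts had the same values as another called one in all 16 libraries, so the 451 are not all separate measurements. The response was higher in KO at 188 transcripts (2.53%) and lower in KO at 263 (3.53%). The median log2 difference was 0.84 among the higher ones and -0.86 among the lower ones, against 0.01 over all 7443. The called differences began at a log2 difference of 0.30 upward and -0.36 downward, 75 of the higher ones exceeded 1 and 95 of the lower ones lay below -1. A log2 difference of 2 was exceeded by 17 and 8 lay below -2. The split by direction depended on scaling: with library totals in place of TMM the median of all transcripts moved to 0.20, and 423 were higher and 103 lower, with all 188 higher calls kept and no called transcript changing sign. DESeq2 called 840, among them all of the 451.

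The plot of KO against WT responses shows most called transcripts farther from 0 on the KO axis than on the WT axis. By point estimate, the responses of the 2 genotypes had the same sign and the KO response was larger in size at 277 of the 451, 61.4% against 48.4% of all tested transcripts. They had opposite signs at 161 (35.7% against 29% of those tested) and the same sign with a smaller KO response at 13 (2.88% against 22.7%). In all, the KO response was the larger in size at 89.1% of the 451 and at 65.6% of the tested transcripts. These shares describe transcripts chosen by the same contrast and carry no test.

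**Figure D1:**
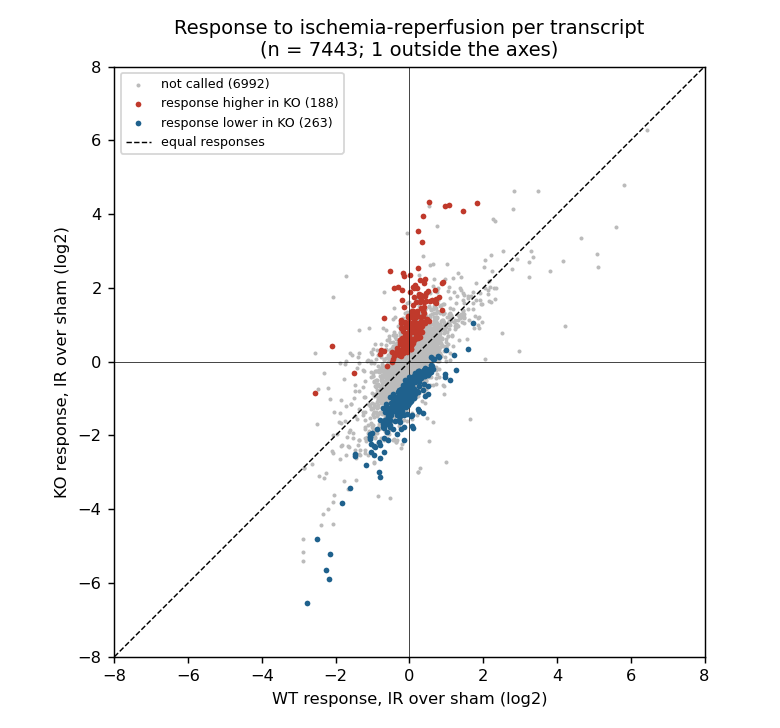
Response to ischemia-reperfusion of each of the 7443 tested transcripts, as log2 IR over sham, in KO livers (vertical axis) and WT livers (horizontal axis). The 188 red and 263 blue points are transcripts with a higher or lower response in KO, grey points were not called, the dashed line marks equal responses, and 1 point lies outside the axes. Of the 451 coloured points, 89.1% lie farther from 0 on the KO axis than on the WT axis, against 65.6% of all tested transcripts.

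With TMM scaling, the most frequent pattern among the calls was a negative response in both genotypes that was larger in size in KO. It covered 168 of the 263 lower calls, with a median response of -1.26 in KO and -0.32 in WT on the log2 scale. Over all tested transcripts 1789 had this pattern, and 9.39% of them were called. The patterns were not counted with library totals in place of TMM, which gave 103 lower calls in all. The KO response passed the test by itself at all 168 and the WT response at 68. In this pattern the KO response exceeds the called difference in size, so the count for KO follows largely from the choice. The clearest case by p-value, a transcript of 1793 bases, stood at 14.6, 15.5, 19.6 and 19.9 TPM in KO IR, against 32.8, 33.4, 37.7 and 39.1 TPM in KO sham livers. In WT it stood at 28.1, 29, 30.4 and 31.2 TPM after IR, against 31.4, 33.3, 34.4 and 35.6 TPM after sham. All 4 KO IR libraries thus lay below the other 12, and the WT groups did not overlap either but lay close together. Its log2 difference was -1.10 (SE 0.14, edgeR adjusted p = 0.00229).

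The mirror pattern, a positive response in both genotypes that was larger in KO, covered 109 of the 188 higher calls. Of the 1811 tested transcripts with it, 6.02% were called. Median responses were 1.28 in KO and 0.25 in WT. The KO response passed the test by itself at all 109, which again follows largely from the choice, and the WT response at 22. Its clearest case, a transcript of 511 bases, had 217, 444, 491 and 614 TPM in KO IR, against 16.3, 20.6, 20.7 and 24.2 TPM in KO sham livers. In WT livers it had 48.7, 77.5, 78.9 and 90.7 TPM after IR, against 20.3, 23, 27 and 27.8 TPM after sham. Both genotypes separated IR from sham completely, and the lowest KO IR library still exceeded every WT IR library. The log2 difference was 2.63 (SE 0.36, edgeR adjusted p = 0.00245), from a response of 4.09 in KO and 1.46 in WT.

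At 86 lower calls the KO response was negative and the WT response positive, with medians of -0.54 and 0.22. Of the 941 tested transcripts with this pattern, 9.14% were called. The transcript with the smallest adjusted p of all belonged here, a transcript of 2946 bases. It stood at 10.7, 12, 13.2 and 13.7 TPM in KO IR, against 16.5, 17.8, 19 and 20.5 TPM in KO sham livers, and at 20, 20.5, 23.1 and 23.9 TPM in WT IR, against 11.7, 15.4, 16.5 and 17.8 TPM in WT sham livers. IR and sham did not overlap within either genotype, and they were ordered oppositely. The log2 difference was -1.34 (SE 0.14, edgeR adjusted p = 0.00112). The KO response passed by itself at 68 of the 86 and the WT response at 25.

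At 75 higher calls the KO response was positive and the WT response negative, with medians of 0.53 and -0.16. Of the 1216 tested transcripts with this pattern, 6.17% were called. The clearest case, a transcript of 2046 bases, had 10.2, 10.2, 11.4 and 14.4 TPM in KO IR, against 6.92, 7.13, 7.56 and 7.68 TPM in KO sham livers. In WT livers it had 4.2, 5.29, 5.85 and 6.1 TPM after IR, against 7.99, 8.31, 8.61 and 8.77 TPM after sham. Again no IR library overlapped a sham library of its genotype. The log2 difference was 1.07 (SE 0.12, edgeR adjusted p = 0.00139). The KO response passed by itself at 64 of these 75 and the WT response at 11. The 4 cases above were picked after the values were seen, as the smallest p in each pattern, and each was called in all 16 fits that left out 1 library.

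The reverse situation, a smaller response in KO, was rare among the calls. Both responses were positive at 9 lower calls, with medians of 0.15 in KO and 0.80 in WT, and both were negative at 4 higher calls, with medians of -0.21 in KO and -1.05 in WT. The WT response passed the test by itself at all 13, which follows largely from the choice in the same way, and the KO response at 3.

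Over all calls, the KO response passed by itself at 412 of the 451, where 38.5% of the tested transcripts did, and the WT response at 139, where 16.4% did. Both passed at 103, the KO response alone at 309, the WT response alone at 36 and neither at 3. A response that passed in KO and not in WT is shown to differ here by the test of the difference, not by these counts. The counts describe transcripts chosen by a contrast that holds both responses.

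The same difference can be written as the gap between genotypes after IR minus the gap after sham. Among the 188 higher calls the median gap, KO over WT, was 0.75 after IR and -0.06 after sham on the log2 scale, and among the 263 lower calls it was -0.74 and 0.11. The gap was larger in size after IR at 185 of the 188 and at 261 of the 263, against 72.3% of all tested transcripts. The gap after IR passed the test by itself at 183 of the higher and 260 of the lower calls, where 17.5% of the tested transcripts did. These counts follow in part from the choice of the 451, since the gap after IR is a part of the contrast that chose them. They carry no test. After sham the gap passed at 0 of the 451 by edgeR and 0 by DESeq2, where edgeR called 2 of the 7443 tested (0.0269%). At an unadjusted edgeR p under 0.05 the sham gap passed at 35 of the 451, against 282 of the 7443. Its point estimate exceeded 1 in size at 5 of the 451, against 42 of the 7443. The sham and IR gaps had opposite signs at 131 of the 188 and at 220 of the 263. That share follows in part from the subtraction, since noise in the sham groups enters the sham gap and the difference with opposite signs, and it was 3851 of 7443 over all tested transcripts.

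The order of the libraries was counted at the same calls. The 4 KO IR libraries all lay above the other 12 at 150 of the 188 higher calls, where 6.93% of all tested transcripts had this order. They all lay below the other 12 at 197 of the 263 lower calls, where 6.11% had it. At the remaining 38 higher and 66 lower calls, KO IR overlapped another group. At 27 of the higher calls only the 4 KO IR libraries reached 10 CPM, so the filter itself required KO IR to be high. Together the 188 transcripts held 1.68 ± 0.287% of all TPM in KO IR and 0.633 ± 0.041% in KO sham livers, and 0.73 ± 0.0922% in WT IR and 0.637 ± 0.0566% in WT sham livers (SD, n = 4). The 263 transcripts held 4.76 ± 0.331% in KO IR and 9.51 ± 0.466% in KO sham livers, and 6.97 ± 0.235% in WT IR and 7.69 ± 0.333% in WT sham livers. These counts and shares describe the transcripts the contrast chose and were not tested.

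**Figure D2:**
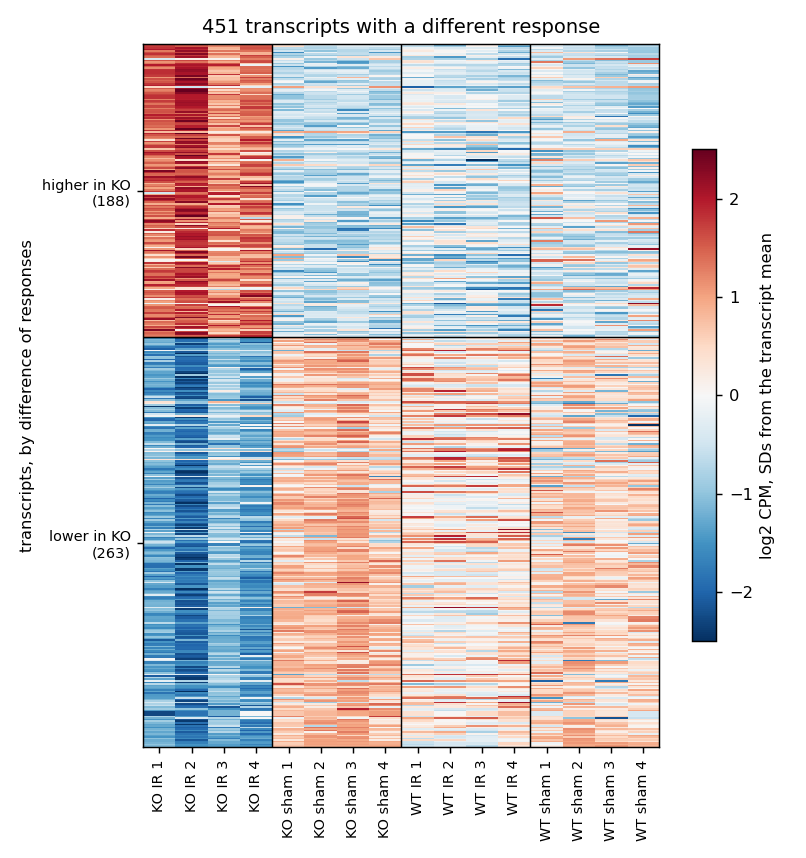
Level of the 451 called transcripts (rows, ordered by the difference of responses) in the 16 libraries (columns), as log2 CPM in SDs from the mean of the transcript, red above and blue below it. Most of the 188 upper rows are high and most of the 263 lower rows low in the 4 KO IR columns, with exceptions among the 38 higher and 66 lower calls at which KO IR overlaps other libraries, and KO IR 3 is paler than KO IR 2.

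Among the KO IR libraries, number 3 was the least displaced at the called transcripts. It was the KO IR library nearest to the KO sham mean at 260 of the 451 calls, against 96 for KO IR 1, 19 for KO IR 2 and 76 for KO IR 4. In WT, library IR 4 was nearest to the WT sham mean at 164 calls, against 79 to 120 for the other 3. The nearest library was not counted over all tested transcripts. Without KO IR 3 the test called 624 transcripts, 225 higher and 399 lower. Without KO IR 2, the most displaced library at the calls, it called 255, and without WT IR 4 it called 228. Leaving out WT IR 2, KO sham 2 or KO sham 3 gave 283, 264 and 248 calls, and without KO IR 1 or WT IR 3 the higher calls numbered 125 each. With each library left out in turn, 197 transcripts were called in all 16 fits, 80 higher and 117 lower. Of these 197, 135 had the same sign in both genotypes with a larger KO response, 59 had opposite signs and 3 had a smaller KO response. Over all tested transcripts the shares were 48.4%, 29% and 22.7%, in that order. KO IR lay wholly above the other libraries at 74 of the 80 and wholly below them at 105 of the 117. Of all tested transcripts 6.93% and 6.11% had these orders. The 197 were chosen by the contrast and by the 16 fits, so these counts carry no test.

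The 2 largest higher differences were in transcripts of nearly equal length that followed each other across libraries, as their log2 CPM had a Pearson correlation of 0.982 and a Spearman one of 0.968 over the 16 libraries, which fall into 4 groups. Whether they share sequence, and so reads, was not tested. ENSMUST00000217203.1, of 874 bases, had 166, 127, 63.9 and 101 TPM in KO IR libraries 1 to 4, against 9.65, 2.45, 3.68 and 2.2 TPM in KO sham libraries 1 to 4. In WT it had 2.3, 0.609, 7.74 and 0.696 TPM after IR, against 3.81, 1.61, 0.536 and 1.17 TPM after sham. KO IR stood above every other library by a wide margin, while WT IR and WT sham overlapped. The response was 4.32 in KO (SE 0.76) and 0.53 in WT (SE 0.75) on the log2 scale, a difference of 3.79 (SE 1.03, edgeR adjusted p = 0.0447). ENSMUST00000098537.3, of 875 bases, had 142, 103, 57.3 and 86.4 TPM in KO IR, against 12.2, 1.63, 3.05 and 2.87 TPM in KO sham livers, and 1.9, 1.24, 6.84 and 0.356 TPM in WT IR, against 2.49, 2.16, 0.914 and 1.6 TPM in WT sham livers. Its difference of 3.56 (SE 0.999) passed narrowly (edgeR adjusted p = 0.0495). Both reached 10 CPM in KO IR only, so they were tested only because KO IR was high. KO sham 1 and WT IR 3 were the high libraries of their groups for both. The call of ENSMUST00000217203.1 was lost on leaving out any of 11 libraries and that of ENSMUST00000098537.3 on leaving out any of 13, with the direction kept each time.

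The 2 largest lower differences fell in both genotypes and further in KO. ENSMUST00000071543.11, of 2150 bases, had 0.115, 0.0368, 0.0538 and 0.0475 TPM in KO IR libraries 1 to 4, against 3.22, 5.22, 5.35 and 4.76 TPM in KO sham libraries, or 19 against 1664 estimated counts over the 4 libraries. In WT it had 0.339, 0.447, 0.249 and 1.51 TPM after IR, against 1.22, 5.09, 6.34 and 4.36 TPM after sham. KO IR lay below every WT IR library, and WT IR 4 exceeded WT sham 1. The response was -6.53 in KO (SE 0.79) and -2.76 in WT (SE 0.62), a difference of -3.77 (SE 0.95, edgeR adjusted p = 0.0318). ENSMUST00000102755.3, of 1632 bases, had 1.79, 0.763, 0.817 and 0.466 TPM in KO IR, against 26.5, 57.3, 56.6 and 39.3 TPM in KO sham livers, and 2.93, 4.23, 4.63 and 20.6 TPM in WT IR, against 7.82, 48.8, 43.2 and 47.4 TPM in WT sham livers. Its difference was -3.71 (SE 0.97, edgeR adjusted p = 0.0382). In both transcripts WT IR 4 was the high library of WT IR and WT sham 1 the low library of WT sham, and their log2 CPM had a Pearson r of 0.989 over the 16 libraries. All 4 named calls were lost with limma-voom (adjusted p of 0.344 to 0.812), with the filterByExpr filter and with no filter. The call of ENSMUST00000071543.11 was lost on leaving out any of 6 libraries and that of ENSMUST00000102755.3 on leaving out any of 9. WT IR 4 was among them for both, with the direction kept each time.

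**Figure D3:**
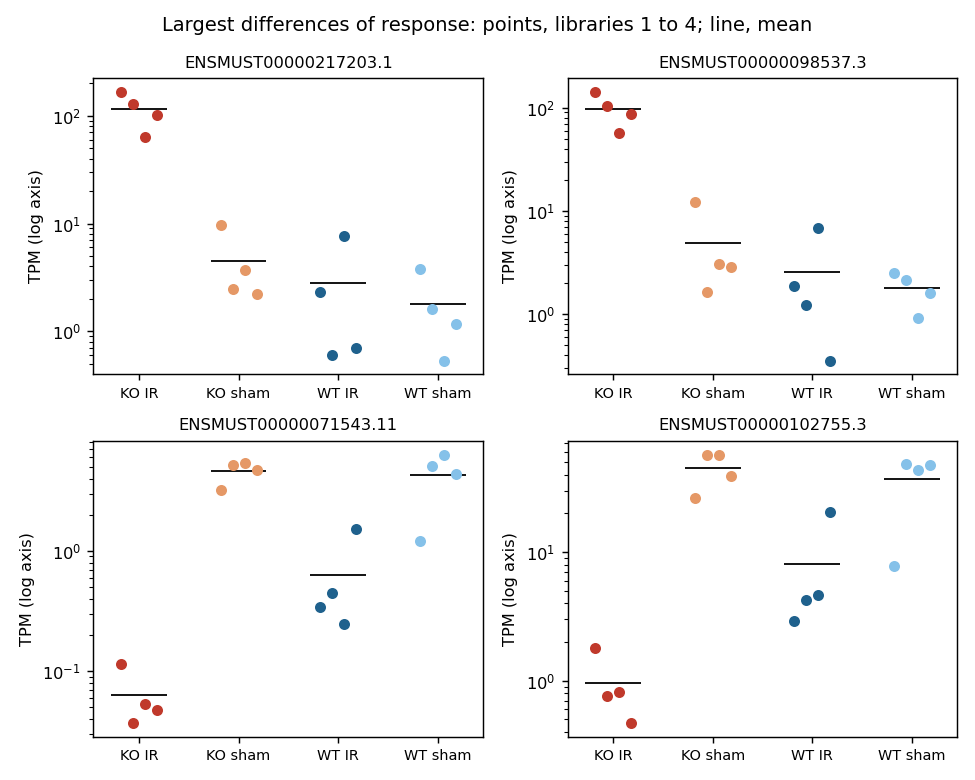
TPM on a log axis of the 4 transcripts with the largest called differences, the 2 higher ones above and the 2 lower ones below, in KO IR, KO sham, WT IR and WT sham livers. Points are libraries 1 to 4 from left to right and the line is their mean. KO IR stands apart from all other groups in each panel, and WT IR 4 lies well above the other WT IR libraries in the lower panels.

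The calls were spread unevenly over level. Among the 1489 most abundant transcripts, with a mean of 60.73 CPM or more, 34 were higher and 151 lower in KO, 12.4% of them in all. Among the 1489 least abundant, at 12.25 CPM or less, 39 were higher and 19 lower, 3.9% in all. The abundant class held 151 of the 263 lower calls. The median SE was 0.26, 0.20, 0.18, 0.17 and 0.17 in the 5 classes from the least to the most abundant, and the 4th class, with an SE as low as that of the most abundant, had 5.71% called. The part of precision in the uneven calls was not tested. The median difference of all transcripts in a class was 0.08 in the lowest and -0.13 in the highest. With library totals the abundant class had 80 higher and 57 lower calls, so its balance turned, but it held 57 of the 103 lower calls and its median again lay 0.14 below that of all transcripts.

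**Figure D4:**
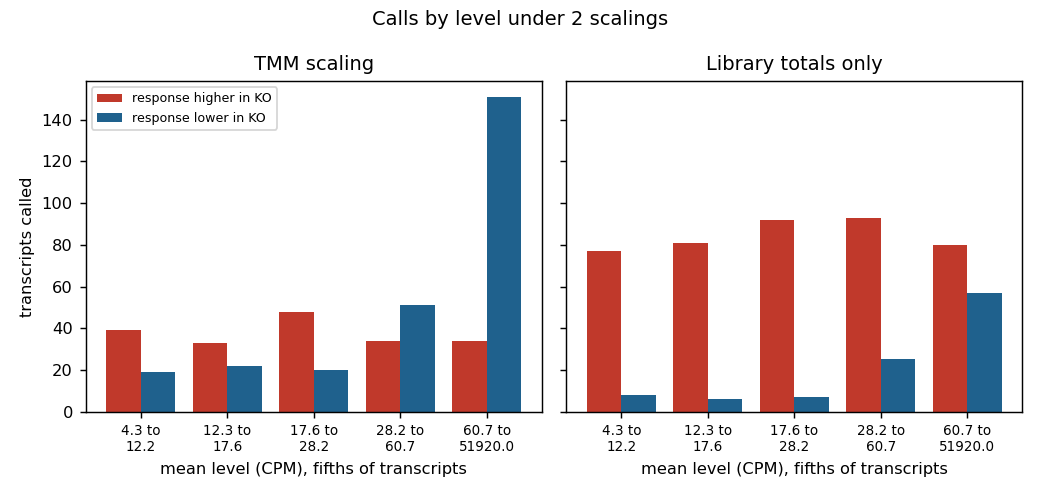
Number of transcripts with a higher (red) or lower (blue) response in KO in 5 classes of mean level, in CPM, of 1488 or 1489 transcripts each, with TMM scaling on the left and library totals on the right. The most abundant class holds 34 higher and 151 lower calls with TMM and 80 and 57 with library totals.

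Length showed a weaker gradient in the same test. Among transcripts of up to 1327 bases 52 were higher and 66 lower, 7.92% in all, and among those of 4436 bases or more 21 were higher and 22 lower, 2.89% in all. The median SE was 0.19 and 0.20 in these classes.

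A transcript that reached 10 CPM only through KO IR had to be high there. In 84 tested transcripts all 4 KO IR libraries and no other reached 10 CPM, and 27 of these were called higher. More broadly, 599 transcripts would not have been tested without the KO IR libraries, and they gave 43 of the 188 higher calls and 0 of the lower ones by edgeR, with 1 at an unadjusted p under 0.05 and 1 by DESeq2. Testing only the other 6844 gave 159 higher and 241 lower calls.

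Most transcripts were measured well enough to bound the difference. The 95% interval of the log2 difference lay within 1 of 0, a 2-fold difference of responses, at 5530 of the 7443 transcripts (74.3%), 138 of them called. It lay wholly beyond 1 at 36 called transcripts. These intervals are per transcript, without adjustment, and their median half-width was 0.41. At an unadjusted p under 0.05, 1628 transcripts differed (21.9%). At 224 transcripts, which can be among these 1628, the difference was over 1 in size and was not called. Their median SE was 0.66, against 0.19 over the called ones.

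**Figure D5:**
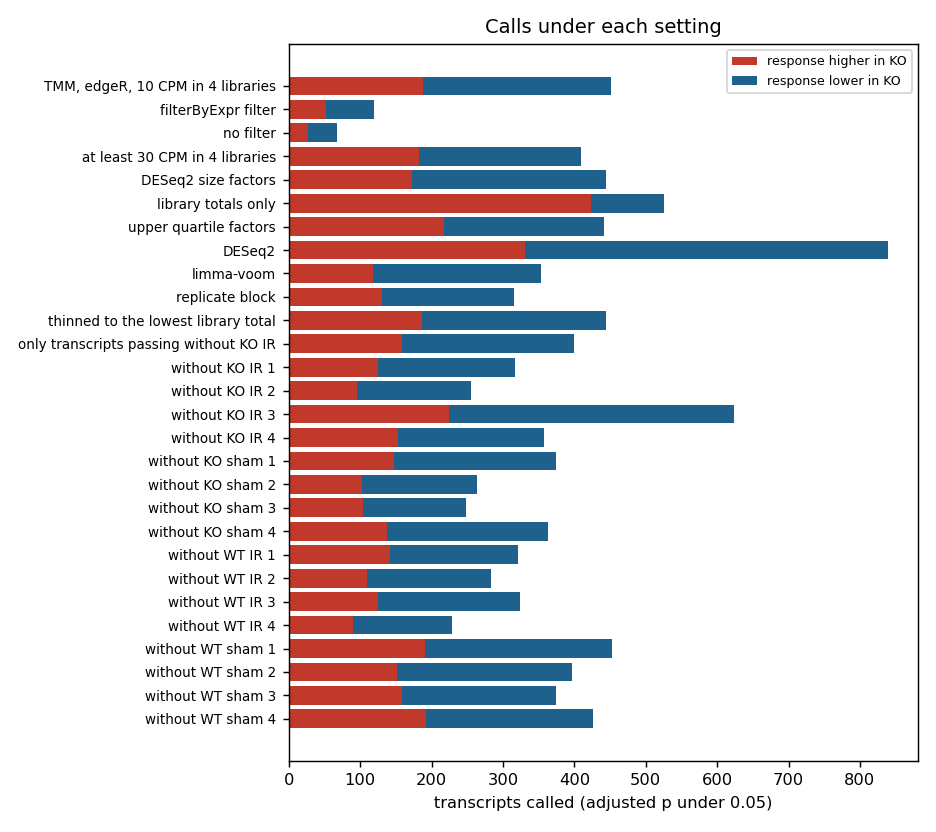
Number of transcripts called at an adjusted p under 0.05 under each setting, split into a higher (red) and lower (blue) response in KO. The top bar is the setting of the text, with 188 and 263 calls, the next 11 change the filter, scaling, tool, block or counts, and the last 16 leave out 1 library each. The count spans 67 without a filter to 840 with DESeq2, and only library totals give clearly more higher than lower calls.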

How the data were processed

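RNA of 16 liver libraries, 4 per group, was analysed, with groups taken from the titles. Per the submitters' processing notes, Trimmomatic and kallisto were used with mm10; for versions and annotation the sources used here are silent. The authors deposited kallisto estimated counts, not normalized, and TPM for each transcript, per the file headers. Estimated counts were rounded and tested with edgeR 4.0.16 (R 4.3.3, limma 3.58.1): TMM scaling, robust dispersions, quasi-likelihood fit (group means, 12 residual degrees of freedom), Benjamini-Hochberg adjustment over the 7443 transcripts of at least 10 CPM in 4 or more libraries, threshold 0.05. The authors' TPM only describe levels. DESeq2 1.42.0 and limma-voom were alternatives. The fit was tested on simulated data. The rule named the 2 largest called differences in each direction. It had been written mainly for genes; sums per gene and gene lists were not analysed here because identifiers were not paired with genes. The transcripts, rules and tests were chosen with earlier results of these data known. No library was a duplicate of another in its group (chi-square per degree of freedom 82.3 to 391 between pairs). The CUT&RUN peak lists of this series were not used.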

Additional observations from a re-analysis of the deposited data

Results flagged for a closer look

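The response to ischemia-reperfusion differed between the genotypes at 451 transcripts by the interaction test, and among these at the 4 named ones: ENSMUST00000217203.1 (log2 difference 3.79), ENSMUST00000098537.3 (3.56), ENSMUST00000071543.11 (-3.77) and ENSMUST00000102755.3 (-3.71). These 4 calls were lost in 14 of 26, 19 of 26, 10 of 26 and 13 of 27 alternatives, in that order, with the direction kept in each. Only alternatives in which the transcript passed the filter were counted. ENSMUST00000217203.1 and ENSMUST00000098537.3 did not pass without the KO IR libraries, and ENSMUST00000071543.11 did not reach 30 CPM in 4 libraries.

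Some single libraries lay far from the other 3 of their group by Dixon's test. Of 48 groups of values examined 7 gave such a library, and chance gives about 1 in 20. ENSMUST00000098537.3 reached 12.18 TPM in KO sham 1, where KO sham 2 to 4 had 1.63 to 3.05 TPM. In WT IR 4, ENSMUST00000071543.11 reached 1.51 TPM, where WT IR 1 to 3 had 0.249 to 0.447 TPM, and ENSMUST00000102755.3 reached 20.58 TPM, where they had 2.93 to 4.63 TPM. ENSMUST00000102755.3 stood at only 7.82 TPM in WT sham 1, where WT sham 2 to 4 had 43.23 to 48.82 TPM. KO IR 4 had 44.35 M estimated counts, against 37.79 to 38.22 M in the other KO IR libraries. WT IR 4 had 15928 transcripts of at least 1 TPM, against 16895 to 17065 in the other WT IR libraries. The 263 transcripts with a lower response in KO held 5.25% of TPM in KO IR 1, against 4.53 to 4.65% in the other KO IR libraries.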

How the results depend on the processing

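Against 451 calls, 188 higher and 263 lower, the filter for replicated expression (filterByExpr, 36041 transcripts) gave 119, 52 and 67, and no filter gave 67, 27 and 40. Of the 119, 85 were among the 451 (71.4% of the 119, 18.8% of the 451). DESeq2 gave 840, 331 and 509, with 13 transcripts left without an adjusted p. Library totals gave 526, 423 and 103. Limma-voom gave 118 higher calls. Leaving out 1 library gave 228 to 624 calls, 90 to 225 higher and 138 to 399 lower. The cause of these shifts was not tested. At least 30 CPM (410 calls), DESeq2 size factors (444), upper quartile factors (442), counts thinned to 37.79 M (445) and transcripts passing without KO IR (400) stayed within 1.5 times; the last 2 settings were chosen after seeing the data. The replicate block gave 316 calls, 130 higher and 186 lower; replicate numbers did not pair libraries (correlations of deviations -0.2 to 0.2 for the same number, and 4 of 16 libraries correlated best with their own number). No named transcript reversed, but all 4 named calls were lost with filterByExpr (edgeR adjusted p of 0.0856 to 0.162), with no filter (0.165 to 0.376) and with limma-voom (0.344 to 0.812), and all but that of ENSMUST00000217203.1 with the replicate block (0.0517 to 0.0744). Over all edgeR, DESeq2 and limma settings their adjusted p ranged from 0.000513 to 0.812. Sums per gene were planned and not run. Low counts limit the transcripts under 10 CPM, which are not described here.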

Other observations

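The spread between libraries of a group differed. The median SD of log2 CPM over the 7443 tested transcripts was 0.17 in KO IR, 0.16 in KO sham, 0.14 in WT IR and 0.22 in WT sham. Over the 451 called transcripts it was 0.21 in KO IR, 0.13 in KO sham, 0.13 in WT IR and 0.18 in WT sham.

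The largest difference in size among the transcripts that were not called was 10.49 on the log2 scale, with an SE of 3.32.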
